A study of Mus musculus with 2 samples.

Results

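Natural killer (NK) cells and related cytotoxic innate lymphocytes of the mouse mesentery were represented by 56 cell barcodes of the 3143 that passed the quality filters, out of 3204 deposited. A barcode was taken as a member when it carried at least 3 UMIs (unique molecular identifiers, each counting 1 captured transcript) summed over Ncr1, Klrb1c, Klre1, Klrd1, Gzma and Prf1. It also had to hold at most 1 UMI summed over the T cell receptor complex genes Cd3e, Cd3d and Cd3g, none of the B cell receptor genes Cd79a and Cd79b, and at most 2 UMIs each of Dcn, a fibroblast matrix gene, and C1qa, a macrophage complement gene. These are called NK-rule barcodes. They came from whole mesentery of 2 male wild-type C57BL/6N mice that received no treatment, 1 Chromium 3′ library per mouse, with 36 members in library 1 and 20 in library 2. Cells had been released with the collagenase blend Liberase DH, without sorting. Both mice form 1 group, so every comparison is between classes of barcodes within the same animals, and the animals' age is not given as such in the labels.

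NK cells kill stressed or infected cells by releasing granules that hold granzymes, which are proteases, and perforin, which lets them into the target. Germline-encoded receptors, in the mouse chiefly those of the Klr and Ly49 families, weigh activating against inhibitory signals, and the activating ones work through small adaptor proteins. In tissues NK cells share this programme with group 1 innate lymphoid cells (ILC1), which are set apart by residency and receptor genes, whereas ILC2 make type 2 cytokines and are the innate lymphocytes best known from mesenteric fat.

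The 6 genes that chose the barcodes are given as a description. Gzma, the granzyme A gene, supplied 451 of their 615 UMIs (73.3%) and was seen in 45 of 56 barcodes, 26 in library 1 and 19 in library 2. Klre1, whose product pairs with other lectin-like receptors, was seen in 36 barcodes, and Klrd1, which encodes CD94, in 33. Klrb1c, the NK1.1 gene, was seen in 24 and Ncr1, which encodes NKp46, in 16. Prf1, the perforin gene, had 4 UMIs in 4 barcodes. The rule sum had a median of 7 UMIs and ran between 3 and 37. It rested on at least 2 of the genes in 53 barcodes, on at least 3 in 31, and on Gzma alone in 2. All but 1 barcode had no Cd3 UMI. At the edge of the rule, 13 barcodes had a sum of exactly 2, of which 12 held Nkg7 and 12 held Ccl5, and 8 members had exactly 3, of which 7 held Nkg7 and 8 held Ccl5.

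The label was checked with transcripts that the rule did not use. Of the NK markers outside the rule, Tyrobp was seen in 55 of 56 barcodes, Nkg7 in 50, Eomes in 13 and Tbx21 in 11. Tyrobp and Nkg7 are not particular to the members. With each barcode thinned to 1000 UMIs, Tyrobp was seen in 86.1% and 100% of members and in 76.6% and 80.0% of barcodes with myeloid markers. Nkg7 was then seen in 86.1% and 80.0% of members and in 27.6% and 33.8% of barcodes with T cell markers. The 3 B cell genes outside the rule had no UMI, the neutrophil genes none, and Il22, Il23r, Il17a, Il17f and Ccr6 of the ILC3 list none. Of 10 ILC2 markers only Gata3 was detected, with 4 and 0 UMIs in the 2 libraries. Of the 7 T cell markers outside the rule, Cd28, a costimulatory receptor, had 11 and 4 UMIs, and Cd4, Cd8a, Cd8b1, Cd5, Cd6 and Trat1 had none. Through Cd28 these 7 summed to 159 and 120.2 CPM (UMIs scaled to a total of 1000000) in NK-rule barcodes, against 149 and 124 CPM in the other barcodes with a UMI of Ptprc (CD45), the general leukocyte marker, so their sum did not set the members apart from that mixture. T cell receptor constant genes are not analysed here. Of 9 mast cell and basophil markers, Cma1, a chymase gene that mature mouse NK cells also carry, had 4 and 5 UMIs and Kit 1 and 0. The 8 macrophage and monocyte genes other than C1qa summed to 333 and 60.1 CPM in NK-rule barcodes, with 6 of the 8 at 0, against 8696 and 7227 CPM in the other Ptprc-positive barcodes. The 6 fibroblast genes other than Dcn summed to 86.8 and 120.2 CPM in NK-rule barcodes, with 2 of the 6 at 0, against 3252 and 3250.2 CPM in the others. Limits on C1qa and Dcn were part of the rule, so barcodes rich in the genes that go with them had already been left out.

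Class II genes stood apart within library 1. The NK-rule barcodes of library 1 held 244 UMIs of the dendritic and class II list and those of library 2 held 0, and 2 barcodes of library 1 carried 235 of the 244. One of these had 168 class II UMIs and none of Ccl5, Nkg7 or Tyrobp. The other had 67, with 21 Lyz2 UMIs and all of those NK transcripts. No other member had more than 2. Counts of changed genes are also given without these 2 barcodes, a choice made after seeing the data. No member was among the 39 and 4 barcodes that Scrublet called doublets in libraries 1 and 2.

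NK-rule barcodes made up 2.43% of the filtered barcodes of library 1 (36 of 1484, exact 95% binomial interval 1.70 to 3.34%) and 1.21% of library 2 (20 of 1659, 0.738 to 1.86%). Of the Ptprc-positive barcodes they were 7.51% (31 of 413, 5.16 to 10.5%) and 3.69% (15 of 407, 2.08 to 6.01%). Ptprc was detected in 46 of the 56 members. Members were shallower than every other leukocyte class, with a median of 1592 and 1554 UMIs per barcode in the 2 libraries and a range of 1003 to 7711, against class medians between 1829 and 4493. Their summed counts were 69144 UMIs in library 1 and 33269 in library 2, so 1 UMI weighed 14.5 and 30.1 CPM, and a count of 0 allows up to 43.4 and 90.2 CPM. The libraries as a whole held 5137671 and 5563521 UMIs and shared no barcode sequence. Intervals and these limits cover counting error only.

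NK-rule barcodes were compared with 3 sets of barcodes of the same libraries. The other Ptprc-positive barcodes, 382 and 392, are a mixture in which barcodes with myeloid markers, 145 and 162, were the largest class. T-marker barcodes, 87 and 69, had at least 2 Cd3 UMIs, and 5 and 11 of them would have passed the NK sum, so they include cytotoxic T cells by transcript. ILC2-marker barcodes, 31 and 29, had at least 3 UMIs of Il1rl1, Gata3, Areg, Il5, Il13 and Il17rb. Counts were summed per library and class and tested with edgeR's quasi-likelihood test with the library as a block, calling genes at a Benjamini-Hochberg adjusted p under 0.05. The rule genes of both sides and Ptprc stay out of every count. The members were chosen from the same counts, so genes that go along with the rule genes from barcode to barcode are favoured. A filter on low counts set which genes were tested, and a gene high in the members alone can pass it through them.

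Against the other Ptprc-positive barcodes, 137 of 6714 genes tested were higher in NK-rule barcodes (2.04%) and 427 were lower (6.36%). Of the 427, 159 had no UMI at all in the members. Against T-marker barcodes, 42 of 3218 genes were higher (1.31%) and 71 lower (2.21%). Against ILC2-marker barcodes, 82 of 3213 were higher (2.55%) and 235 lower (7.31%). The median log2 fold change over all genes was -0.32, -0.06 and -0.07 in the 3 comparisons. The first comparison rests on 4 sums with 1 residual degree of freedom, so its spread is in effect one value shared by all genes and its small p-values measure little more than that. The balance of the T cell comparison depended on the scaling: with DESeq2's size factors it gave 42 higher and 42 lower, 50% higher among the calls against 37.2% with TMM. The first comparison was also set against a mean in which each other class weighs the same, in place of their sum. It then gave 125 higher and 135 lower, 48.1% higher against 24.3%, with the median over all genes at -0.12. This alternative came from the fit over all classes that served the other comparisons, which has its own spread. It tested 3218 genes in place of 6714. The effect of the weighting alone on the counts, the median or the calls was therefore not tested. Without the 2 class II barcodes the counts were 134 higher and 495 lower, 39 and 68, and 94 and 216 in the 3 comparisons.

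Cytotoxic granule genes outside the rule were higher in NK-rule barcodes. Of 11 tested against the other Ptprc-positive barcodes, 7 were higher in NK-rule barcodes and none lower, with a median log2 fold change of 2.87 over the 11. Nkg7, which encodes a granule membrane protein needed for efficient degranulation (ENSMUSG00000004612, chromosome 7, 43437073 to 43438249), had 201 and 76 UMIs, or 2907 and 2284 CPM, in NK-rule barcodes, against 175 and 203 UMIs, or 131 and 148 CPM, in the other Ptprc-positive barcodes. Both NK-rule values lay far above both others (log2 fold change 3.84 ± 0.23 SE, edgeR adjusted p = 4.19e-57). Gzmb, the granzyme B gene (ENSMUSG00000015437, chromosome 14, 56258838 to 56262260), stood at 521 and 451 CPM in NK-rule barcodes, against 16.5 and 29.2 CPM (4.10 ± 0.43, edgeR adjusted p = 8.66e-19). Serpinb9, whose product shields the cell from its own granzyme B, stood at 998 and 782 CPM, against 63.8 and 64.3 CPM (3.44 ± 0.29). Ctsw, the cathepsin W gene, Serpinb6b, a related protease inhibitor, Fasl, a death ligand, and Cst7, an inhibitor of lysosomal cathepsins, were higher by 3.35, 2.87, 3.02 and 2.67 on the log2 scale. Srgn, the proteoglycan that packs granules, was at 868 and 1052 CPM in NK-rule barcodes and 988 and 805 CPM in the others, values that overlap. The calls of Fasl and Cst7 were lost when Gzma was left out of the rule.

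Against T-marker barcodes 4 of 8 tested granule genes were higher, Nkg7, Gzmb, Serpinb9 and Serpinb6b. Nkg7 stood at 2907 and 2284 CPM in NK-rule barcodes, against 545 and 862 CPM in T-marker barcodes (1.71 ± 0.34, edgeR adjusted p = 0.00717). Serpinb9 showed the largest difference of the 4, at 998 and 782 CPM against 96.2 and 163 CPM (2.64 ± 0.41, edgeR adjusted p = 0.00101). Gzmb, at 521 and 451 CPM against 85.5 and 196 CPM, passed narrowly (edgeR adjusted p = 0.0453), and 5 alternative fits lost it. Of the 36 Gzmb UMIs in library 1, 13 came from 1 barcode of 7711 UMIs. The call of Serpinb6b was lost under 3 alternatives. Against ILC2-marker barcodes 6 of 8 were higher and Srgn was lower, at 868 and 1052 CPM in NK-rule barcodes against 2171 and 1877 CPM in ILC2-marker barcodes (-1.37 ± 0.24, edgeR adjusted p = 0.000801). Gzmb had 36 and 15 UMIs in NK-rule barcodes and 0 and 1 in ILC2-marker barcodes.

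**Figure D1:**
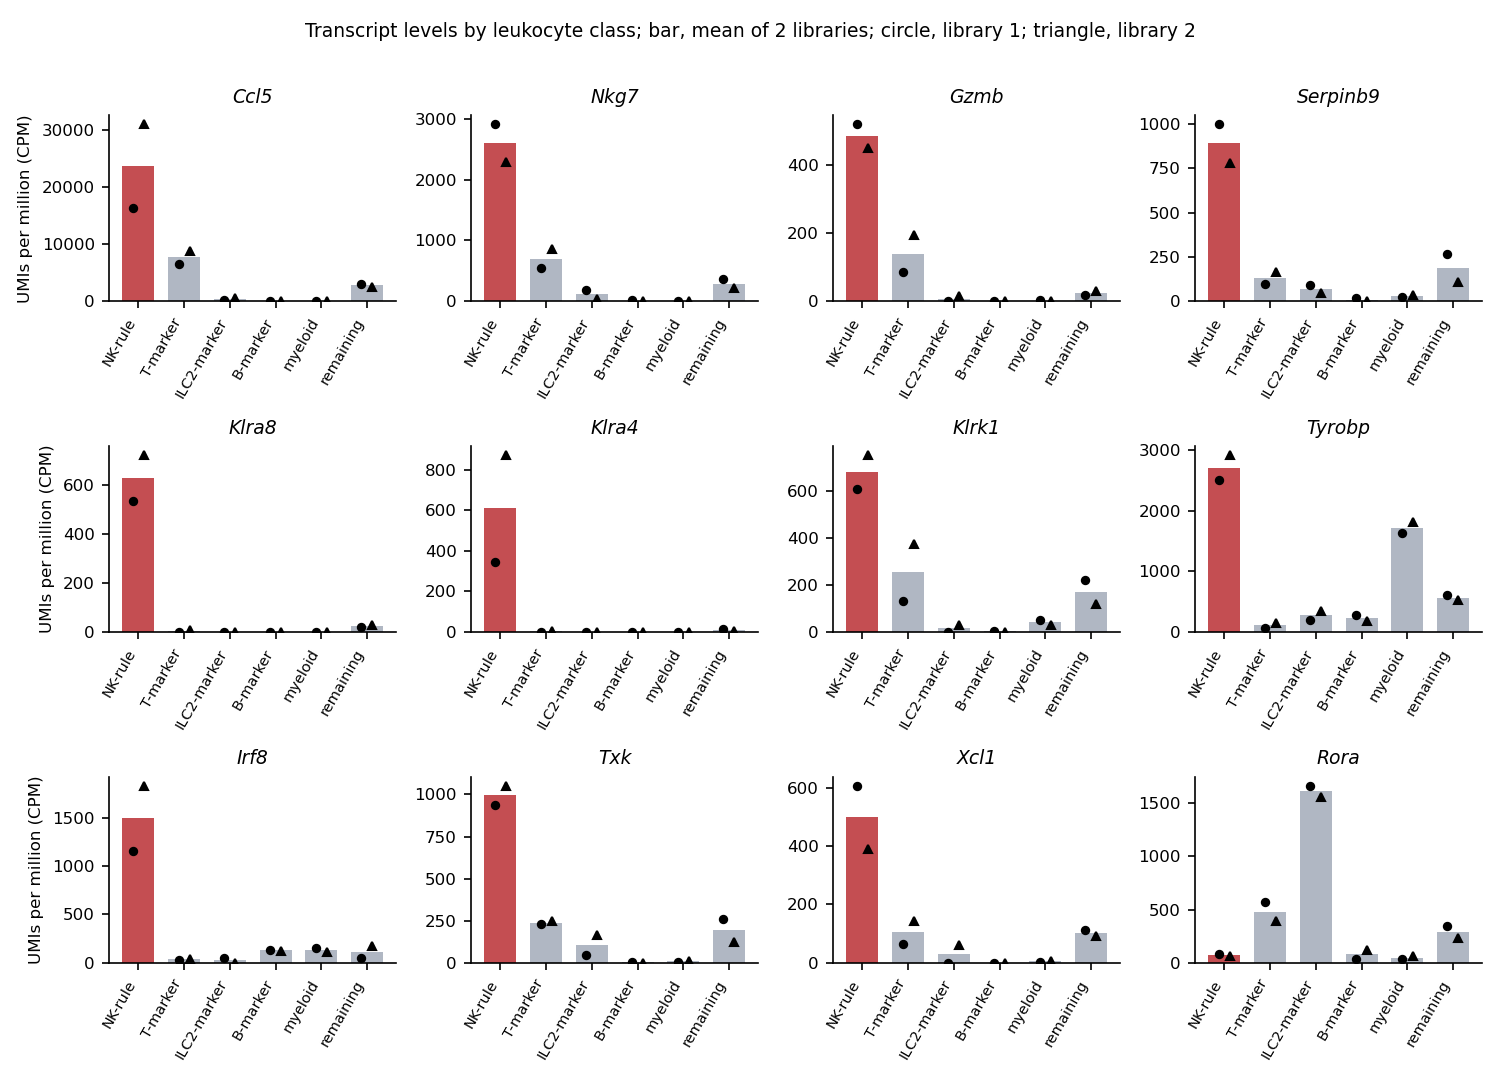
Levels of 12 transcripts in CPM (linear axes that start at 0) in NK-rule barcodes and in the other leukocyte classes; bars are means of 2 libraries, circles library 1 and triangles library 2. Nkg7, at 2907 and 2284 CPM, and Irf8, at 1157 and 1834 CPM, lie highest in NK-rule barcodes, and Rora lies highest in ILC2-marker barcodes.

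The upstream regions of 3 genes are shown: Ncr1, a rule gene seen in 16 of 56 members, and Gzmb and Nkg7 of the granule result. Each is the 250 bases before RefSeq's start on GRCm38.p6, printed 5′ to 3′ on the gene's strand, and capitals mark matches on either strand to the letters TGTGGT (RUNX), AGGTGT (T-box), AGGAAGT (ETS) and TGAGTCA (AP-1). Ncr1 lies at chr7:4337465-4337714 on the plus strand, Gzmb at chr14:56262335-56262584 on the minus strand, and Nkg7 at chr7:43436888-43437137 on the plus strand.
Ncr1: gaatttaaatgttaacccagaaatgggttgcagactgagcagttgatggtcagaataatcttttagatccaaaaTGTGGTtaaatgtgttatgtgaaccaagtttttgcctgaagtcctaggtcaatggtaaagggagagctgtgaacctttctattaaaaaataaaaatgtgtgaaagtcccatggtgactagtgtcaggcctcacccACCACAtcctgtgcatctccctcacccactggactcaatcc
Gzmb: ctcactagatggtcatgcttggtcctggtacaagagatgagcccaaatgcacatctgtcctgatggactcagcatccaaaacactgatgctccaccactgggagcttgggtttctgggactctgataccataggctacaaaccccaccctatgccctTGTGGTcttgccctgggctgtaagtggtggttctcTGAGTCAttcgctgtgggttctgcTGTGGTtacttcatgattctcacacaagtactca
Nkg7: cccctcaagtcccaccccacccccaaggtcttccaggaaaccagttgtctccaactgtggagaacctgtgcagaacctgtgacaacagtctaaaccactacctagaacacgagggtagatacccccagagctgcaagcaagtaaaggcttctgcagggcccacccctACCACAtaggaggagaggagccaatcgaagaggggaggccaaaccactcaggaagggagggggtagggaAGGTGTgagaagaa
The RUNX letters begin 176 and 41 bases before the start in Ncr1, 93 and 34 bases before it in Gzmb, and 83 bases before it in Nkg7. The AP-1 letters begin 58 bases before the start in Gzmb and the T-box letters 14 bases before it in Nkg7. These starts are RefSeq's, and the gene coordinates given above (GENCODE M21) set both elsewhere. By those coordinates the Nkg7 window reaches past the gene's start, and its T-box letters lie inside the gene. The Gzmb window ends short of that gene's start. The RUNX letters occurred in 14.05% of 32851 RefSeq windows of this length, in 5 of the 5 rule genes with a window, and in 4 of 9 of the 10 most increased genes (Gzmb, Klrc1, Nkg7 and Xcl1); Klrd1 and Ccl5 had no entry. T-box letters occurred in 11.8% of all windows, in 2 of 5 rule genes and in 1 of 9 of the most increased genes. ETS letters occurred in 7.69% of all windows, in 1 of 5 and in 2 of 9, and AP-1 letters in 4.46% of all windows, in 0 of 5 and in 1 of 9. The windows were picked after the values were seen, and a match describes letters only.

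NK receptor genes formed the second block. Of 16 tested against the other Ptprc-positive barcodes, 11 were higher in NK-rule barcodes and 1 was lower, with a median log2 fold change of 3.37. The lower one was Fcgr3, an antibody receptor, at 57.9 and 30.1 CPM in NK-rule barcodes and 190.0 and 161 CPM in the others, where myeloid-marker barcodes held 245 and 207 of its 253 and 220 UMIs; with each other class weighing the same its fold change turned to 0.52 (edgeR adjusted p = 0.821). Most of the 11 lie together: on chromosome 6 between 128609227 and 131247362 (GENCODE M21, GRCm38), a stretch with 49 genes of which 24 are Klr genes, 11 of the 11 Klr genes tested outside the rule were higher. These are 10 of the 11 on the list, since Cd160 lies elsewhere, and Klra5, which was not on it. Over all genes tested, 2.04% were higher. A receptor gene near 0 in the other barcodes could pass the filter on low counts only through its NK-rule UMIs. The filter therefore favoured the 11 of 11, and the untested Klr genes of the stretch do not enter it. Clec12a, a myeloid lectin gene of the same stretch, was lower and had no UMI in NK-rule barcodes.

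Within that stretch the Klra genes, which encode the Ly49 receptors, had the largest increases. Klra8, the gene of the activating receptor Ly49H, had 37 and 24 UMIs, or 535 and 721 CPM, in NK-rule barcodes, against 3 and 9 UMIs, or 2.25 and 6.58 CPM, in 774 other barcodes (6.73 ± 0.52, edgeR adjusted p = 4.31e-35). Klra4, the gene of the activating receptor Ly49D, had 24 and 29 UMIs against 2 and 3 (7.80 ± 0.61, edgeR adjusted p = 1.77e-34). The calls of Klra4 against T-marker and ILC2-marker barcodes were lost with DESeq2's Wald test. T-marker barcodes held 0 and 1 UMI of each, and ILC2-marker barcodes none, which puts Klra8 at least 25.5-fold and Klra4 at least 22.2-fold higher than in ILC2-marker barcodes. Klra9 and Klra7, genes of inhibitory Ly49 receptors, had 11 and 15 and 6 and 14 UMIs. Against T-marker barcodes Klra9 was higher (3.74 ± 0.80, edgeR adjusted p = 0.0153). Klra7 was not called there (1.42 ± 0.65, edgeR adjusted p = 0.357): T-marker barcodes of library 2 held 28 UMIs of it and those of library 1 held 2. Klra genes are related copies of one another, and how reads were shared among them is uncertain.

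Other lectin-like receptor genes were also higher. Klrk1, the gene of NKG2D, an activating receptor for stress ligands, had 42 and 25 UMIs, or 607 and 751 CPM, in NK-rule barcodes, against 73.6 and 85.5 CPM in the others (2.70 ± 0.31, edgeR adjusted p = 2.67e-16). In T-marker barcodes it stood at 134 and 372 CPM, a difference that did not pass (edgeR adjusted p = 0.134). Klrc1, which encodes the inhibitory NKG2A chain that pairs with CD94, differed between the libraries, with 463 CPM in library 1 and 150 CPM in library 2 of NK-rule barcodes, against 15.8 and 16.1 CPM in the others. It was also higher than in T-marker barcodes (3.93 ± 0.71, edgeR adjusted p = 0.00558). Klri2, an NK receptor chain that pairs with the Klre1 product, had 14 and 13 UMIs in NK-rule barcodes and 0 in T-marker barcodes, at least 29.9-fold higher. Klrg1, an inhibitory receptor that ILC2 carry too, was lower than in ILC2-marker barcodes, at 72.3 and 120.2 CPM against 349 and 259 CPM (edgeR adjusted p = 0.0406), a call that 6 alternative fits lost. In all, 6 of 12 receptor genes tested were higher against T-marker barcodes and 8 of 12 against ILC2-marker barcodes, where Klrg1 was the 1 lower.

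**Figure D2:**
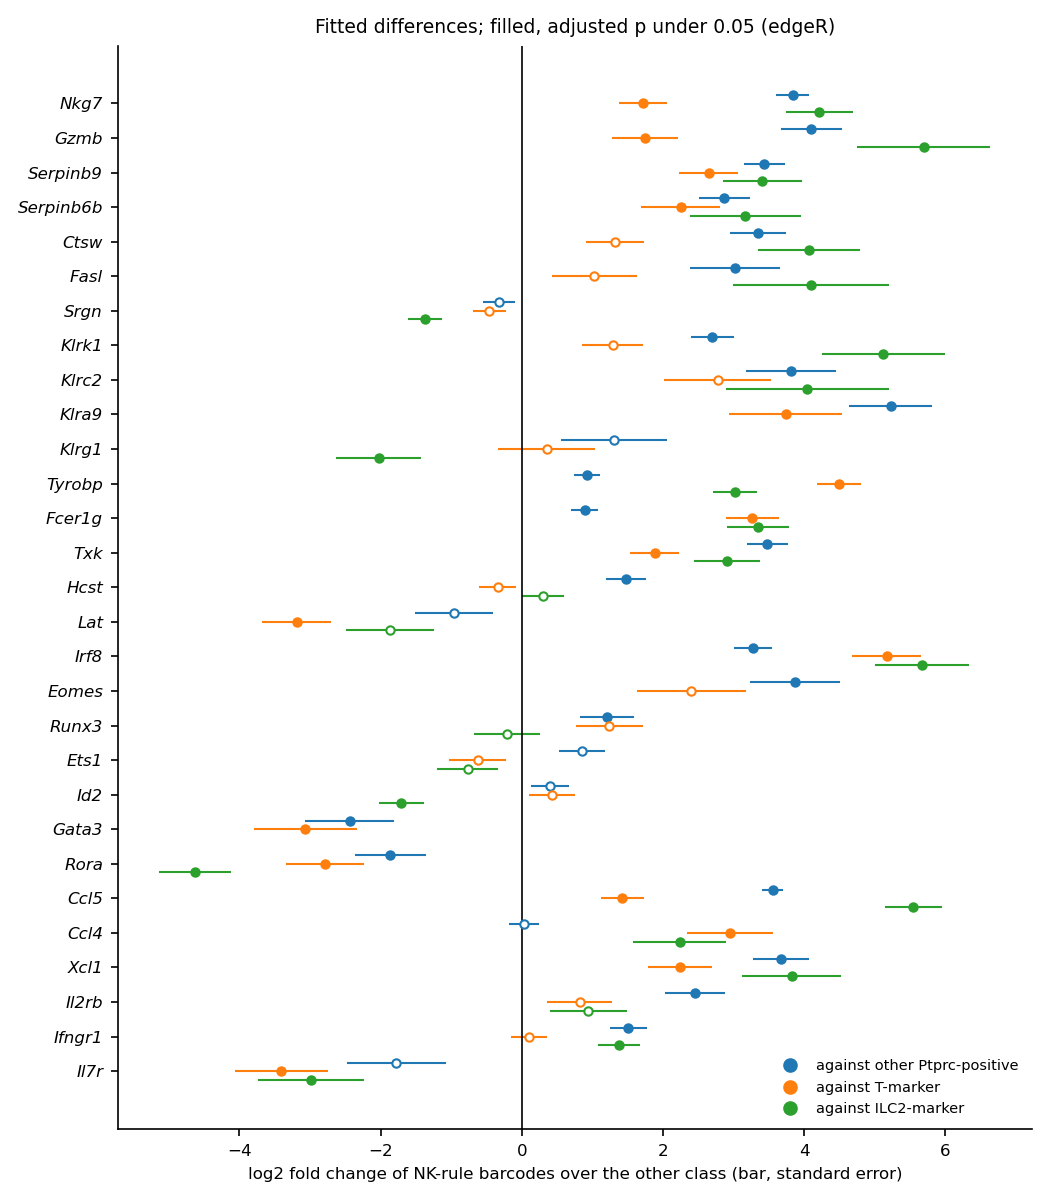
Fitted log2 fold changes of 29 transcripts in NK-rule barcodes over the other Ptprc-positive (blue), T-marker (orange) and ILC2-marker (green) barcodes; bars are standard errors, filled points passed an adjusted p of 0.05 in edgeR, and points are left out where a class had no UMI or the gene helped to choose it (Gata3 for ILC2-marker barcodes). Nkg7, Txk and Irf8 lie right of 0 in all 3 comparisons, and Rora lies left of 0 in all 3.

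A few adaptor and signalling genes separated NK-rule barcodes from T-marker barcodes, some higher and some lower. Tyrobp, which encodes the adaptor DAP12 used by activating Ly49 receptors, stood at 2502 and 2916 CPM in NK-rule barcodes, against 69.5 and 150.2 CPM in T-marker barcodes (4.49 ± 0.31, edgeR adjusted p = 1.14e-07). Fcer1g, another such adaptor, stood at 2488 and 2194 CPM, against 203 and 235 CPM (3.27 ± 0.38, edgeR adjusted p = 4.04e-05). Both are also myeloid genes, at 1625 and 1805 and at 1614 and 1482 CPM in myeloid-marker barcodes, below the NK-rule values. Hcst, the neighbour of Tyrobp on chromosome 7 and the DAP10 gene that serves NKG2D, was higher than in the other Ptprc-positive barcodes (1.48 ± 0.28, edgeR adjusted p = 6.04e-06). Hcst was at 824 and 782 CPM in NK-rule barcodes and 796 and 1065 CPM in T-marker barcodes, where the groups overlap. Txk, a kinase of the Tec family, was higher in all 3 comparisons, at 940 and 1052 CPM in NK-rule barcodes against 230 and 248 CPM in T-marker barcodes (1.88 ± 0.34, edgeR adjusted p = 0.00368). Lat, a T cell receptor signalling adaptor, was lower than in T-marker barcodes, with 8 and 0 UMIs against 124 and 84 (-3.19 ± 0.49, edgeR adjusted p = 0.00091). Counted over the list, 6 of 17 were higher and none lower against the other Ptprc-positive barcodes (median log2 fold change 0.88). Against T-marker barcodes 4 were higher, 2 lower and 9 not called of 15, with a median of -0.25. Against ILC2-marker barcodes 4 were higher and 1 lower of 15, with a median of 1.39. The calls of Tyrobp, Fcer1g and Hcst in the first comparison were lost when Gzma was left out of the rule.

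Among 18 lymphoid transcription factors tested against the other Ptprc-positive barcodes, Eomes, Tbx21, Runx3 and Irf8 were higher and Zeb2, Gata3 and Rora lower, with a median log2 fold change of 0.31. Irf8, a factor shared with B cells and dendritic cells (ENSMUSG00000041515, chromosome 8, 120736358 to 120756694), had the highest level of the 4, with 80 and 61 UMIs, or 1157 and 1834 CPM, in NK-rule barcodes against 114 and 113 CPM in the others (3.27 ± 0.27, edgeR adjusted p = 1.24e-31). It was the only factor of 16 tested that was higher than in T-marker barcodes, which held 32.1 and 39.2 CPM (5.17 ± 0.49, edgeR adjusted p = 6.93e-06), and it was seen in 39 of 56 members. The barcode with 67 class II UMIs held 10 of its 141 UMIs. Eomes, a defining factor of NK cells, had 10 and 6 UMIs in NK-rule barcodes, against 11 and 11 UMIs in 774 others (3.87 ± 0.63, edgeR adjusted p = 6.41e-08), and 7 and 2 UMIs in T-marker barcodes, where the difference did not pass (edgeR adjusted p = 0.122). Tbx21, the T-bet gene, had 9 and 3 UMIs, against 14 and 17 (2.97 ± 0.68, edgeR adjusted p = 0.000369), a call lost with DESeq2's Wald test and when Gzma was left out of the rule. The call of Runx3 was lost under 7 alternatives, and that of Zeb2 where each other class weighed the same.

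Rora and Gata3 are factors that ILC2 depend on. Rora was lower in all 3 comparisons and Gata3 in the 2 that did not use it to choose barcodes. Rora (chromosome 9, 68653786 to 69388246) had 6 and 2 UMIs, or 86.8 and 60.1 CPM, in NK-rule barcodes, against 566 and 392 CPM in T-marker barcodes (-2.79 ± 0.55, edgeR adjusted p = 0.00717) and 1664 and 1556 CPM in ILC2-marker barcodes (-4.63 ± 0.51, edgeR adjusted p = 1.05e-05). The calls of Rora and Gata3 against the other Ptprc-positive barcodes were lost with DESeq2's Wald test and with Gzma left out of the rule, that of Gata3 also where each other class weighed the same. The call of Gata3 against T-marker barcodes was lost with Gzma left out and with a rule sum of at least 5. Bcl11b, a T cell and ILC2 factor, had 0 and 1 UMI in NK-rule barcodes, against 31 and 26 in T-marker barcodes and 8 and 9 in ILC2-marker barcodes, and was lower against both, calls lost with DESeq2's Wald test and with a rule sum of at least 5. Id2, which all innate lymphocytes need, was lower than in ILC2-marker barcodes, at 723 and 782 CPM against 2108 and 1983 CPM (-1.71 ± 0.32, edgeR adjusted p = 0.00149). Klf2, a factor of circulating lymphocytes, was higher than in ILC2-marker barcodes, at 506 and 361 CPM against 143 and 45.8 CPM (1.97 ± 0.44, edgeR adjusted p = 0.00659), a call lost with Gzma left out of the rule. Outside the lists, Hhex, a homeobox factor gene, had 16 and 4 UMIs in NK-rule barcodes, against 0 and 1 in T-marker barcodes (5.54 ± 0.97, edgeR adjusted p = 0.00324) and none in ILC2-marker barcodes, at least 8.37-fold higher. Mef2c had 8 and 4 UMIs in NK-rule barcodes and none in T-marker barcodes, at least 13.3-fold higher.

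Secreted products were dominated by Ccl5, a chemokine that attracts T cells and monocytes (chromosome 11, 83525778 to 83530518). It had 1128 and 1029 UMIs in NK-rule barcodes, 16314 and 30930 CPM, against 1337 and 1593 CPM in the other Ptprc-positive barcodes (3.55 ± 0.15, edgeR adjusted p = 2.22e-110), and its 2 NK-rule values differ by more than their counting error. T-marker barcodes held 6578 and 8817 CPM (1.43 ± 0.30, edgeR adjusted p = 0.0106), a call that DESeq2's Wald test lost. Xcl1, which attracts cross-presenting dendritic cells, had 42 and 13 UMIs in NK-rule barcodes, 607 and 391 CPM, against 24.0 and 40.9 CPM (3.67 ± 0.40, edgeR adjusted p = 4.84e-18), and was higher against T-marker barcodes (2.24 ± 0.45) and ILC2-marker barcodes (3.82 ± 0.70) as well. Ccl4 was higher than in T-marker and ILC2-marker barcodes but stood at 1634 and 1082 CPM in NK-rule barcodes and 988 and 1110 CPM in the other Ptprc-positive barcodes, most of it in myeloid-marker barcodes. Of its 113 UMIs in library 1, 3 of the 36 members held 84. Both of its calls were lost with DESeq2's Wald test, and that against ILC2-marker barcodes also without the block on the library. Ifng, the interferon-gamma gene, had 1 and 1 UMI in NK-rule barcodes and 16 and 5 in the others, Tnf had 1 and 0 against 147 and 163, and Csf2, Il10, Il2 and Lta had none. Of 10 genes tested in this list, Ccl5 and Xcl1 were higher and Ccl3, Tnf and Csf2 lower against the other Ptprc-positive barcodes, with a median log2 fold change of 0.19. With each other class weighing the same, Ccl3 turned to 1.11 (edgeR adjusted p = 0.447) and the calls of Tnf and Csf2 were lost.

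**Figure D3:**
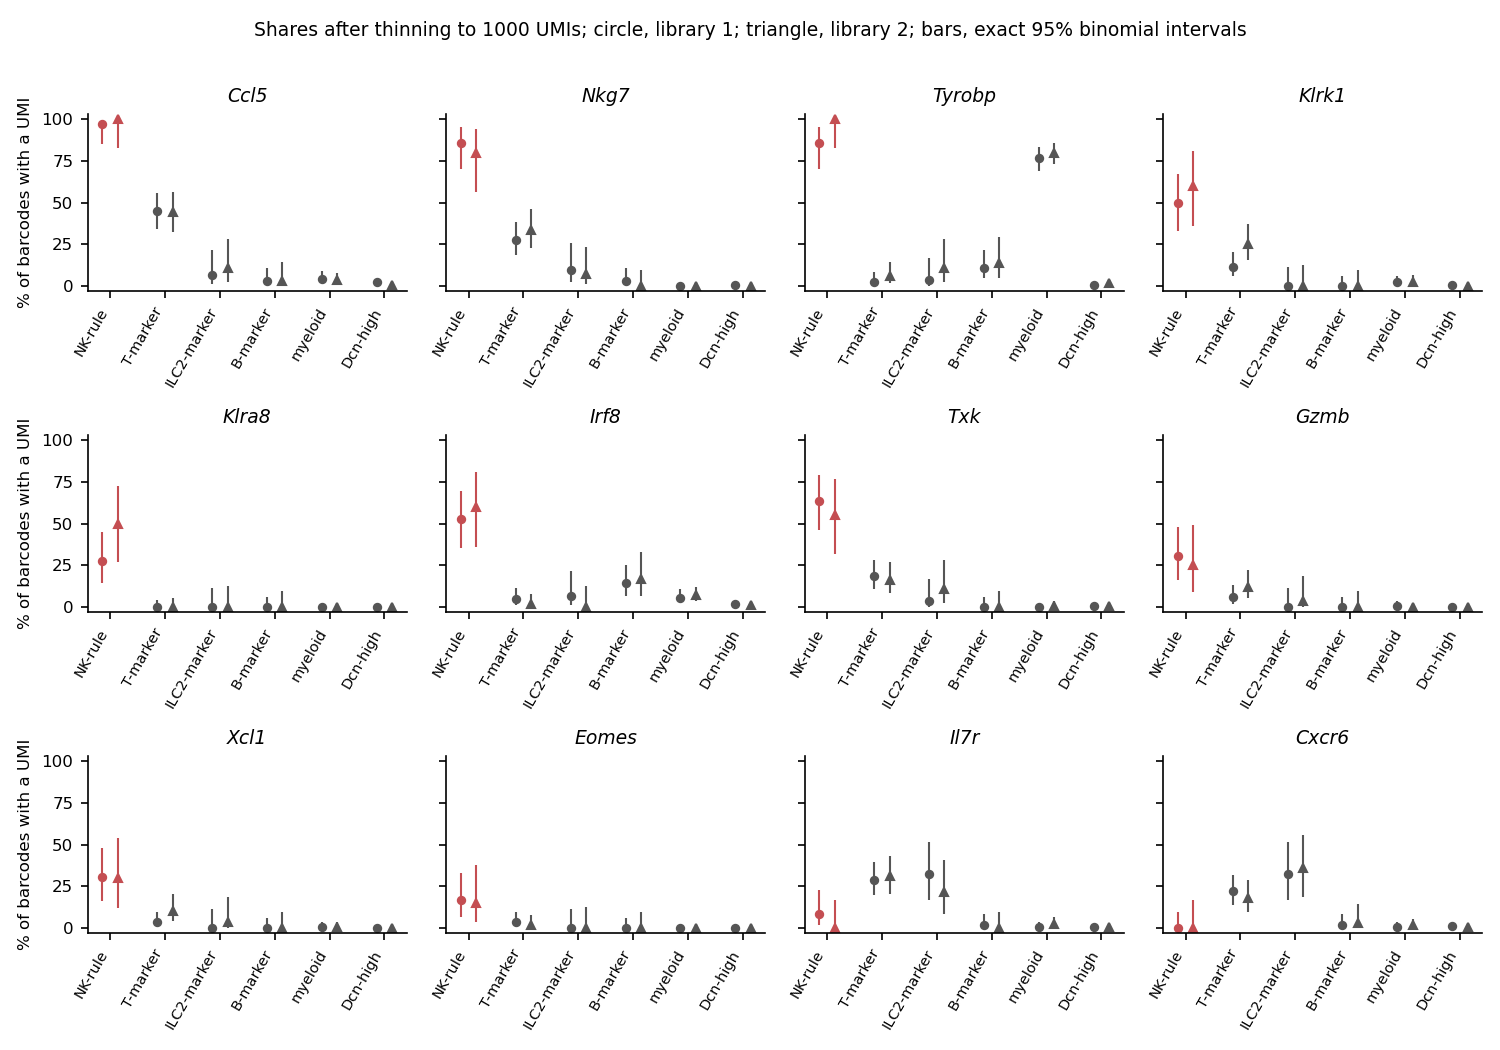
Share of barcodes with at least 1 UMI after each barcode was thinned to 1000 UMIs, by class; circles are library 1, triangles library 2, bars exact 95% binomial intervals, and Dcn-high barcodes without Ptprc show the background. Nkg7 was seen in 86.1% and 80.0% of NK-rule barcodes and in 0.185% and 0% of Dcn-high barcodes, and Cxcr6 was seen in no NK-rule barcode.

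Shares of barcodes were compared at equal depth, thinned to 1000 UMIs, which left out no NK-rule barcode. Left out as shallower were 1 T-marker, 1 ILC2-marker and 2 myeloid-marker barcodes of library 2 and 2 B-marker barcodes of library 1. Of the Dcn-high barcodes without Ptprc, 6 and 19 were left out in the 2 libraries. Dcn-high barcodes without Ptprc, which should lack lymphocyte genes, served as the background. Nkg7 was detected in 31 of 36 and 16 of 20 NK-rule barcodes (86.1%, 70.5 to 95.3%, and 80.0%, 56.3 to 94.3%), against 27.6% and 33.8% of T-marker barcodes, 9.68% and 7.14% of ILC2-marker barcodes, and 1 of 542 and 0 of 717 background barcodes. Ccl5 was detected in 97.2% and 100% of NK-rule barcodes, against 44.8% and 44.1% of T-marker barcodes and 2.03% and 0.558% of background barcodes. Klra8 was detected in 27.8% (14.2 to 45.2%) and 50.0% (27.2 to 72.8%) of NK-rule barcodes and in 0 of 155 T-marker, 0 of 59 ILC2-marker and 0 of 1259 background barcodes. Irf8 was detected in 52.8% and 60% of NK-rule barcodes, against 4.60% and 1.47% of T-marker barcodes and 1.66% and 1.26% of background barcodes. Without thinning the NK-rule shares were 88.9% and 90.0% for Nkg7, 33.3% and 55% for Klra8, and 63.9% and 80% for Irf8.

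Of the genes of tissue residency, more were called lower than higher in NK-rule barcodes. Cxcr6, a chemokine receptor of resident lymphocytes and ILC1, had 0 UMIs in all 56, against 56 and 41 UMIs, or 299 and 268 CPM, in T-marker barcodes and 32 and 33 UMIs, or 507 and 503 CPM, in ILC2-marker barcodes. That is at least 9.73-fold and at least 17.2-fold lower (edgeR adjusted p = 0.000966 and 4.02e-05). Il7r, the interleukin-7 receptor, had 4 and 0 UMIs in 3 NK-rule barcodes, against 82 and 45 in T-marker barcodes (-3.40 ± 0.65, edgeR adjusted p = 0.00558) and 16 and 17 in ILC2-marker barcodes (-2.98 ± 0.76, edgeR adjusted p = 0.0149, lost with Gzma left out of the rule). Tmem176a and Tmem176b were lower in all 3 comparisons, with 1 and 0 and 4 and 0 UMIs in NK-rule barcodes, and the call of Tmem176b against T-marker barcodes was lost under 3 alternatives. Itga1, the CD49a gene of ILC1, Itgae, Zfp683, Inpp4b and Cd200r1 had no UMI in NK-rule barcodes, and Cd69, an early activation and retention gene, was at 188 and 120.2 CPM in NK-rule barcodes and 219 and 327 CPM in T-marker barcodes, which did not pass (edgeR adjusted p = 0.47). Rgs1, a retention gene, was the 1 gene of the list that was higher than in the other Ptprc-positive barcodes (1.22 ± 0.30, edgeR adjusted p = 0.00109, lost under 3 alternatives), and it was at 752 and 421 CPM in NK-rule barcodes and 673 and 542 CPM in T-marker barcodes. Over the list, 1 was higher and 4 lower of 12 against the other Ptprc-positive barcodes, 0 and 4 of 11 against T-marker barcodes, and 0 and 5 of 11 against ILC2-marker barcodes. The medians were -2.47, -2.26 and -2.63, or -0.52, -2.02 and -2.11 with genes at 0 put at the bound that 3 counts give.

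Genes of circulating mature NK cells gave a divided picture. Cma1 had 4 and 5 UMIs in 8 NK-rule barcodes and 1 and 1 in the 774 others, too few to be tested. Zeb2, a factor of terminal NK maturation, had 3 and 0 UMIs, and S1pr5, the receptor by which mature mouse NK cells leave tissues, 1 and 0. Itga2, the CD49b gene, had no UMI in any leukocyte class, and Cx3cr1 none in NK-rule barcodes. Over the list, 4 were higher and 1 lower of 10 against the other Ptprc-positive barcodes (median 1.16), 2 higher and 0 lower of 10 against T-marker barcodes (0.13), and 4 higher and 1 lower of 10 against ILC2-marker barcodes (1.58). Gzmb and Irf8 are among those called higher in each, and Klrg1 is the one lower against ILC2-marker barcodes.

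No single member held both Eomes, an NK cell factor, and Il7r, which ILC1 carry. Eomes was seen in 7 barcodes of library 1 and 6 of library 2, and Il7r in 3 barcodes of library 1, with 26 and 14 barcodes holding neither. Il7r was seen in so few members, and in none of library 2, that the lack of overlap cannot tell NK cells from ILC1. A member without a UMI is not shown to lack the transcript. The 11 members without Gzma, 10 of them in library 1, differed in what else they held. Of these 11, 2 had a UMI of the Klra genes, 4 of Irf8, 5 of Rora and 7 of Xcl1. Of the 45 with Gzma, 40 had a Klra UMI, 35 Irf8, 2 Rora and 16 Xcl1. The median depth was 2005 UMIs without Gzma and 1492 with it. Tyrobp was seen in 10 of the 11 and in all 45, and Ccl5 in 10 and 45. This split uses a rule gene and was made after the values were seen, so it is a description with no test.

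**Figure D4:**
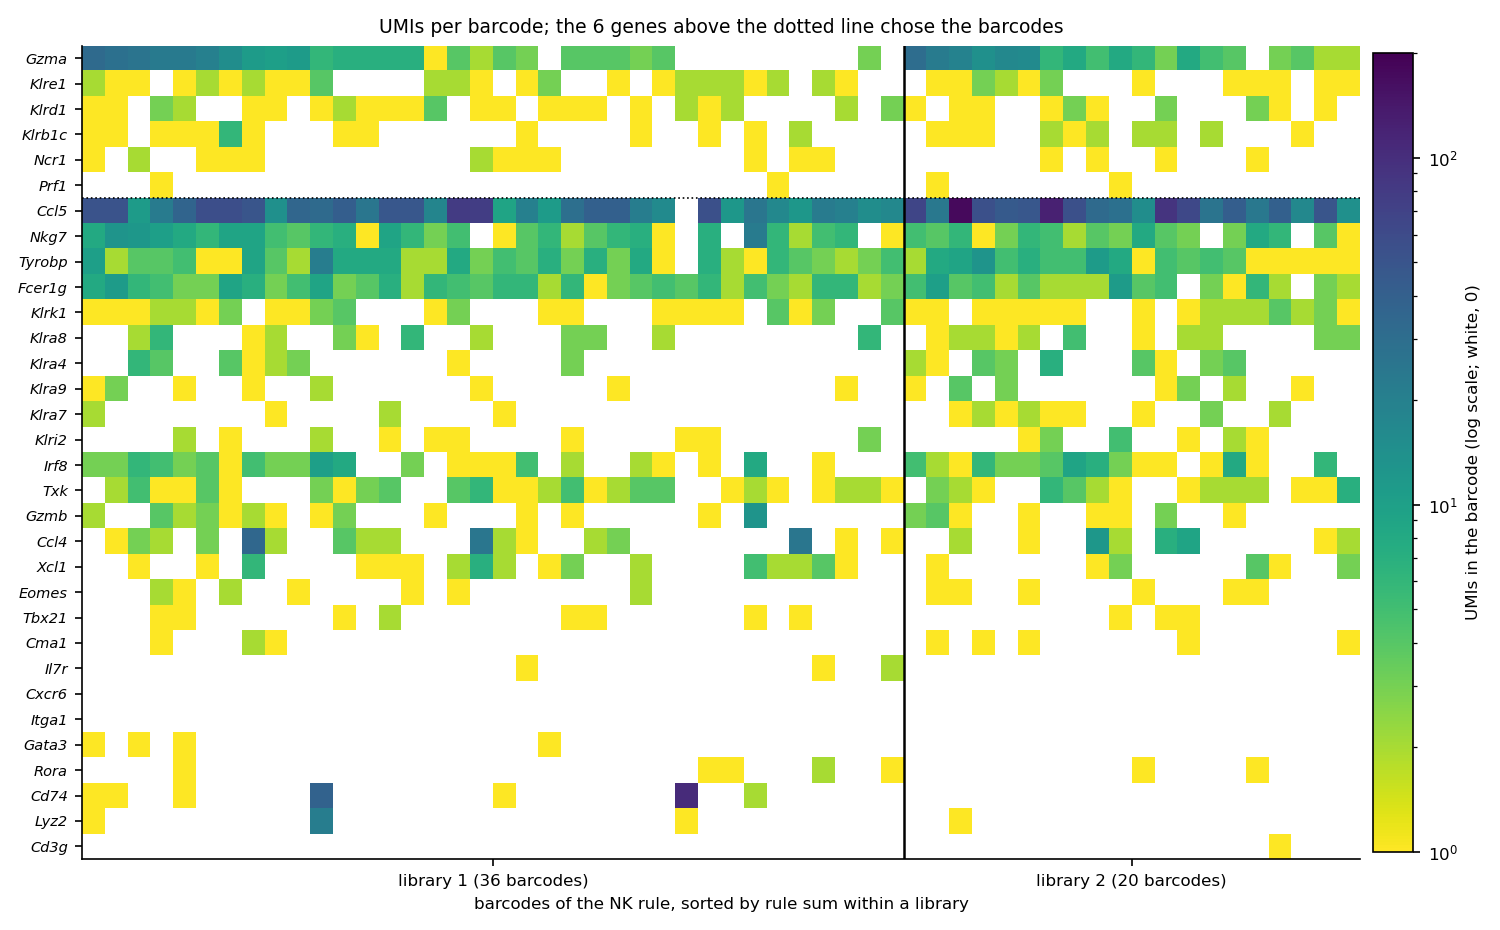
UMIs per barcode on a log colour scale (white, 0) for the 56 NK-rule barcodes, columns sorted by rule sum within library 1 (36) and library 2 (20); the 6 genes above the dotted line chose the barcodes. Ccl5, Nkg7, Tyrobp and Fcer1g fill nearly every column, Klra genes and Irf8 thin out where Gzma is absent, and 2 columns of library 1 hold nearly all Cd74 UMIs.

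Among cytokine and chemokine receptor genes, Il2rb, the shared chain of the interleukin-2 and interleukin-15 receptors on which NK cells depend, was higher than in the other Ptprc-positive barcodes, at 390.5 and 271 CPM against 46.6 and 51.2 CPM (2.45 ± 0.42, edgeR adjusted p = 4.48e-07). Il18rap, an interleukin-18 receptor chain, and Ifngr1, an interferon-gamma receptor chain, were higher by 2.66 and 1.51 on the log2 scale. The calls of Il2rb and Il18rap were lost with Gzma left out of the rule, and that of Il18rap also with DESeq2's Wald test. Il2ra, the high-affinity interleukin-2 receptor chain, had no UMI in NK-rule barcodes, against 28 and 23 in T-marker barcodes and 26 and 38 in ILC2-marker barcodes, at least 5.12-fold and at least 17.0-fold lower. Over the list, 3 were higher and 2 lower of 16 tested in the first comparison (median 0.52), 1 and 2 of 14 in the second (0.01), and 1 and 3 of 14 in the third (0.00). Tnfrsf9, the 4-1BB costimulatory receptor, had 11 and 11 UMIs in NK-rule barcodes, 159 and 331 CPM, against 6.76 and 24.1 CPM in the other Ptprc-positive barcodes (3.65 ± 0.61, edgeR adjusted p = 1.1e-07).

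Among the genes lower in NK-rule barcodes, several were absent from all 56. Ramp3, a partner of receptors for the peptides adrenomedullin and CGRP, had 0 UMIs in NK-rule barcodes, against 127 and 86 in T-marker barcodes and 69 and 51 in ILC2-marker barcodes, at least 21.4-fold and at least 31.8-fold lower. Ly6a, the Sca-1 gene, had 0 UMIs, against 40 and 28 in T-marker barcodes and 27 and 52 in ILC2-marker barcodes, at least 6.82-fold and at least 21.0-fold lower. Tnfrsf4 and Cd40lg, which encode the costimulatory molecules OX40 and CD40 ligand, also had 0, against 37 and 47 and 34 and 15 in T-marker barcodes, and the call of Cd40lg was lost under 2 alternatives. The ILC2 products Csf2, Calca, the gene of the CGRP precursor, Arg1 and Ccl1 had 0, against 79 and 100, 72 and 84, 33 and 24, and 17 and 28 UMIs in ILC2-marker barcodes, with Csf2 at least 47.5-fold lower. Against the other Ptprc-positive barcodes, 8 of 8 macrophage and monocyte genes, 5 of 5 dendritic and class II genes and 5 of 6 fibroblast genes tested were lower, led by C1qb with 0 UMIs against 1339 and 742, at least 26.3-fold lower, a call lost with DESeq2's Wald test and where each other class weighed the same.

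Early response and heat shock genes, which dissociation can induce, were more often called lower than higher in NK-rule barcodes. Of 18 tested, 10 were lower and 1 higher against the other Ptprc-positive barcodes (median -1.36), 2 lower and 0 higher against T-marker barcodes (-0.53), and 8 lower and 0 higher against ILC2-marker barcodes (-1.97). Fosb had 4 and 1 UMIs in NK-rule barcodes, 57.9 and 30.1 CPM, against 229.8 and 209 CPM in T-marker barcodes and 887 and 473 CPM in ILC2-marker barcodes, and its call against T-marker barcodes was lost under 2 alternatives. Jund stood at 853 and 1202 CPM in NK-rule barcodes, against 3645 and 4257 CPM in ILC2-marker barcodes (-2.24 ± 0.19, edgeR adjusted p = 8.52e-07). Jund was also the other gene called lower against T-marker barcodes, a call lost with DESeq2's size factors and without the block on the library. Ier2 was the 1 higher gene, at 1056 and 842 CPM against 408 and 440.0 CPM in the other Ptprc-positive barcodes, a call lost under 5 alternatives. Of 9 MHC class I presentation genes tested, H2-K1, H2-D1 and H2-Q7 were higher than in the other Ptprc-positive barcodes. All 3 calls were lost with Gzma left out of the rule, and those of H2-K1 and H2-D1 were lost under 5 and 4 alternatives in all. H2-K1 stood at 1721 and 2134 CPM in NK-rule barcodes, against 984 and 781 CPM (0.72 ± 0.20, edgeR adjusted p = 0.00588), and at 2127 and 1848 CPM in T-marker barcodes, where the groups overlap.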

How the data were processed

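The deposited matrix holds UMI counts per gene and cell barcode for 2 libraries, 1 per mouse, with 27998 genes and 3204 barcodes, per the file headers. The authors' reads were made into these counts with Cell Ranger on mm10, per the submitters' processing notes (version not given in the sources used here). The numeric suffix of a barcode ties it to its library.

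A barcode was kept when it held 200 genes or more and its mitochondrial share did not pass 10%. Classes were set by UMI thresholds on marker genes, with no clustering, and Scrublet doublet calls (scanpy 1.11.5) were tried as an alternative. Counts were summed per library and class and fitted in edgeR 4.0.16 (R 4.3.3, TMM, quasi-likelihood, genes kept by filterByExpr, library as block). The block comes from the animal, which gave both sums. The first comparison used 4 sums and the others a fit over 12 sums of 6 classes. The fit was tested on simulated data with known fold changes. There every gene had the same spread, all classes had the same composition apart from the changed genes, and no sparse gene was changed. That test therefore does not cover genes of few UMIs or classes that differ as widely as these. Alternatives were DESeq2 1.42.0, other filters, other versions of the rule, and single libraries.

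Named genes were the 10 with the largest change in each direction per comparison among called genes whose mean log2 CPM reached 5 and whose direction was shared by both libraries, plus the listed genes; Clec12a and Klra5 were named after their values were seen. For genes at 0 in 1 class, bounds set that class at 3 counts over both libraries. Members and lists were chosen with earlier results of these data known. Both mice are separate animals, and 2 libraries limit every p-value. Some listed genes are not reported here.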

Additional observations from a re-analysis of the deposited data

How the results depend on the processing

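The number of genes higher than in the other Ptprc-positive barcodes, 137, was 57 with DESeq2's Wald test, 81 with no filter on low counts and 41 with Gzma left out of the rule. With no filter 14732 genes were tested in place of 6714. With Gzma left out the members were 23 and 9 in the 2 libraries, in place of 36 and 20. The number lower, 427, was 133, 209 and 135 with the Wald test, with Gzma left out, and with each other class weighing the same. The last of these came from the fit over all classes, where 3218 genes were tested in place of 6714. Against T-marker barcodes the 42 higher were 26 with the Wald test. The 71 lower were 42 with DESeq2 size factors, 45 with the Wald test, 189 with no filter and 41 with no replicate block. With no filter 14732 genes were tested here in place of 3218. The other counts, all of those against ILC2-marker barcodes included, stayed within 1.5 times. Without the block on the animal the counts higher and lower were 146 and 452, 39 and 41, and 74 and 209. Fcgr3 turned to 0.52 and Ccl3 to 1.11 with each other class weighing the same; Hbb-bs was -6.40 without replicate 1 and 1.21 without replicate 2. No fit without a library was possible for counts of genes, since no residual degree of freedom is left; fold changes within a library have no test. The cause of these changes was not tested.

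Of 215 gene results, 107 kept their call under every fit that gave a value, and 108 lost it under at least 1. The share of members was 2.43% and 1.21% in the 2 libraries. It was 1.55% and 0.542% with Gzma left out of the rule and 3.03% and 1.45% with a rule sum of at least 2. The mean share with a UMI moved for Nkg7 to 68.6% at 500 UMIs, 94.4% at 2000 and 89.4% with no thinning, for Klra8 to 18.1% at 2000, for Irf8 to 72.2% at 2000 and 71.9% with none, and for Eomes to 4.17%, 30.6% and 24.7%. At 2000 UMIs only 9 members of library 1 and 4 of library 2 were deep enough to be kept. The shares at 2000 therefore describe those deeper barcodes and not all members. With 56 members and 102413 UMIs, transcripts of a few UMIs were at the edge of detection.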
